A study of Mus musculus with 5 samples.

Results

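The genes described here mark the trunk of the developing pancreas and the ducts that form from it. Of 9 listed genes (Sox9, Onecut1, Onecut2, Glis3, Pkhd1, Bicc1, Spp1, Tspan8 and Prom1), 8 had a probe set that carried their symbol alone in the platform annotation, 9 probe sets in all, among 19938 genes measured. Spp1, which encodes the secreted protein osteopontin, had no such probe set and is not analysed here.

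Whole pancreata at postnatal day 1 from 2 control mice and 3 Pdx1cKO mice were each hybridised to 1 Mouse Gene 1.0 ST array. In Pdx1cKO mice, Elastase-Cre deletes a loxP-flanked Pdx1, and the labels describe the controls only as without recombination; whether the control mice carried the floxed allele or the Cre is not given in the sources used here. Elastase-Cre acts in exocrine cells, and the study's text describes the proximal ducts as spared by recombination. The authors deposited linear intensities that carry a normalization of unstated kind, and a log2 fold change below is the mean log2 intensity of Pdx1cKO minus that of control.

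During pancreas development the epithelium separates into tips, which become acini, and a trunk, which gives rise to endocrine precursors and ducts. Sox9, Onecut1 and Glis3 are transcription factors of that trunk and stay on in ducts. Pkhd1 and Bicc1 belong to the machinery of the primary cilium and of tubule diameter, whose loss gives cysts in kidney, liver and pancreas. Tspan8 and Prom1 encode proteins of the apical and lateral cell membrane that other epithelia, among them those of the gut, make as well.

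The arrays differed in the tissue they held. Acinar and islet markers had lower sums in the Pdx1cKO mice: the summed intensity of 8 acinar genes was 80947 and 55733 in controls 1 and 2 and 12737 to 22458 in Pdx1cKO, and that of 5 hormone genes was 6555 and 6456 against 3045 to 4026. Control 2 also held gut transcripts, with a summed intensity of 11932 for 8 stomach genes against 410 in control 1 and 476 to 518 in Pdx1cKO, and of 3085 for 8 intestinal genes against 577 and 326 to 415. The Pdx1cKO arrays held more liver transcript, with sums of 16236 to 41042 for 9 genes against 4780 and 6473, and more of granulocytes (1334 to 3606 against 447 and 458, 9 genes) and erythroid cells (785 to 2451 against 326 and 333, 4 genes). Both controls and Pdx1cKO mouse 3 had the Y-linked Eif2s3y high and Xist low, and Pdx1cKO mice 1 and 2 had the reverse, so sex was not balanced between the groups. Pdx1 itself was at 67.9 and 113 in the control mice and at 48.4, 48.4 and 42.9 in Pdx1cKO (log2 fold change -0.91, standard error 0.255, limma adjusted p = 0.385). Its log2 difference was -0.55 against control 1 and -1.28 against control 2. The part of the gut transcripts in the Pdx1 value of control 2 was not tested.

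Sox9, Pkhd1 and Prom1 were lower in all 3 Pdx1cKO pancreata than in both controls, by 1.58-fold, 1.33-fold and 1.15-fold. The other 5 measured genes overlapped between the groups, and in each of them the controls differed from each other by more than the group means did. Over all genes, limma with Benjamini-Hochberg adjustment at 0.05 called 0 of 8 members lower and 0 higher, as it called 0% of all 19938 genes. At an unadjusted limma p under 0.05, 3 of 8 members were lower and 0 were higher, against 5.04% and 5.29% of all genes, and the methods' t-test gave 3 and 0 members unadjusted, where it gave 4.05% and 3.68% of all genes. After adjustment that test gave 0 members, against 0.0351% and 0.0150% of all genes. In 3 of 8 members, and in 11.7% of all genes, the highest Pdx1cKO value was under the lower control. The reverse held in 0 of 8 and in 12.0%. The median log2 fold change of the 8 members was -0.27, with 7 negative, beside -0.00117 over all genes. With 2 mice against 3, an exact permutation test of a single gene cannot give a p below 0.1.

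**Figure D1:**
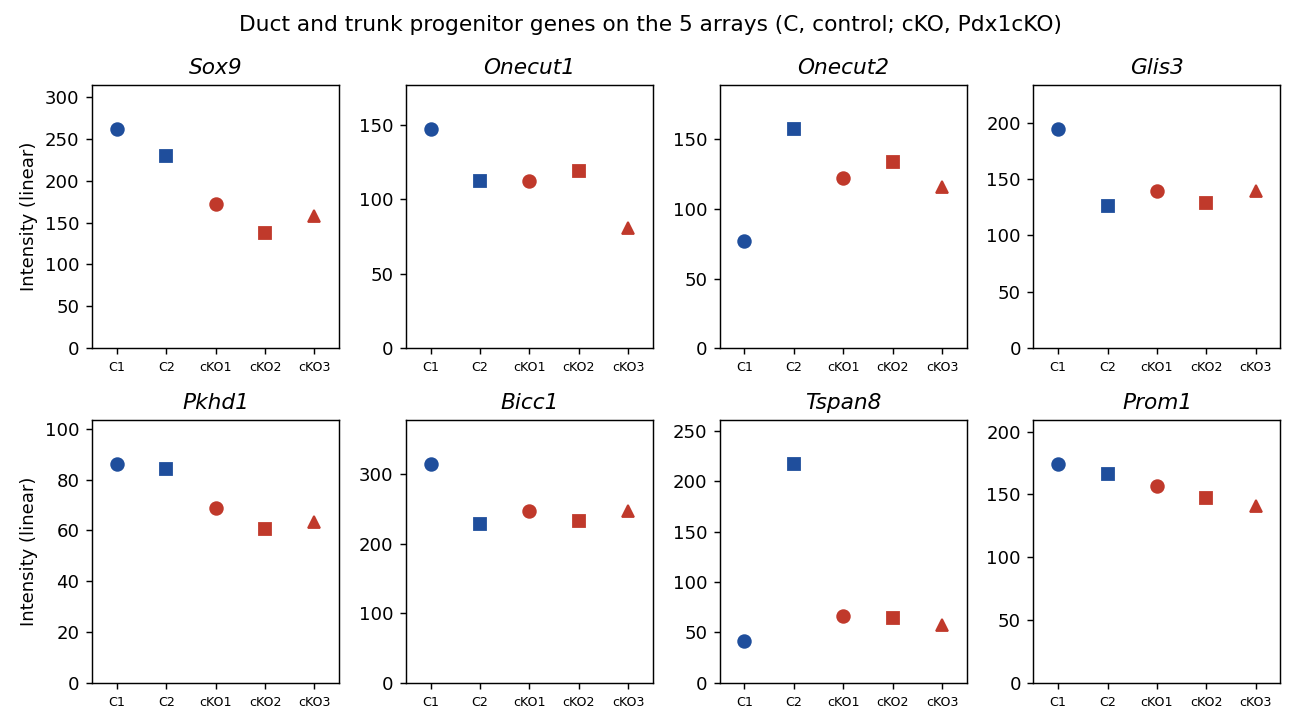
Intensity on a linear scale (y axis, from 0, each panel with its own range) of the 8 measured genes on the 5 arrays (x axis; blue, control mice 1 and 2; red, Pdx1cKO mice 1 to 3; 1 point per mouse). Sox9, Pkhd1 and Prom1 lie below both controls in each of the 3 Pdx1cKO mice, Tspan8 is high in control 2 alone, and control 1 stands above the other 4 arrays for Onecut1, Glis3 and Bicc1 and below them for Onecut2.

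Sox9 encodes an HMG-box transcription factor that keeps pancreatic progenitors multipotent and marks duct and centroacinar cells later. Its intensity (probe set 10382328) was 262 and 229 in controls 1 and 2 and 172, 138 and 157 in Pdx1cKO mice 1, 2 and 3. The groups did not overlap, and the gap from the lower control to the highest Pdx1cKO mouse was wider than the gap between the controls. Sox9 thus had a log2 difference of -0.66 between the groups (standard error 0.127, 95% confidence interval -1.03 to -0.29, limma adjusted p = 0.279). The log2 values had an SD of 0.137 among controls (n = 2) and 0.162 among Pdx1cKO mice (n = 3). A more negative log2 fold change was held by 1.97% of all genes.
The lower Sox9 did not depend on which control it was set against. The Pdx1cKO mean was 0.591 times control 1 and 0.677 times control 2. The part of the gut transcripts in the Sox9 of control 2 was not tested. In bulk pancreas, fewer cells that make a transcript and less transcript per cell cannot be told apart, here and in all that follows. Sox9 is also made by cartilage, and the cartilage genes Acan and Col2a1 lay within 37.5 to 41.5 and 87.7 to 98.0 on the 5 arrays. The part of cartilage in the Sox9 values was not tested.

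Sox9 has been placed in a loop with the mesenchymal signal Fgf10 and its epithelial receptor Fgfr2. Fgf10 was at 101 and 85.6 in the control mice and at 147, 128 and 122 in Pdx1cKO mice 1, 2 and 3, higher in each of the 3 than in both controls (log2 fold change 0.51, standard error 0.124, limma adjusted p = 0.342). Mesenchymal transcripts lay the same way, with all 7 measured mesenchyme genes at a positive log2 fold change (median 0.38) and a lower level in control 2 than in control 1, and their part in the Fgf10 values was not tested. Fgfr2 was level, at 255 and 268 in the control mice and 241, 268 and 277 in Pdx1cKO. Of the paralogs of Sox9, Sox8 had the value 77.3 on all 5 arrays, and Sox10, a gene of Schwann cells, was at 54.0 in control 1 and at 70.6 to 73.3 on the other 4.

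Onecut1 and Onecut2 encode homeodomain factors of the cut class. Onecut1, also named HNF6, switches on Neurog3 in the trunk and is needed for cilia on duct cells. Its intensity (probe set 10587082) was 147 and 112 in the control mice and 112, 119 and 80.8 in Pdx1cKO mice 1, 2 and 3. The groups overlapped: control 2 and Pdx1cKO mouse 1 had the same value, and Pdx1cKO mouse 3 was lowest. Over both controls it was at -0.32 on the log2 scale (standard error 0.242, limma adjusted p = 0.519), or -0.52 against control 1 and -0.13 against control 2. Hepatocytes make Onecut1 too, and the 2 Pdx1cKO mice with more of it were those with the higher liver sums, 35161 and 41042 against 16236 in mouse 3, while the controls, with the lowest liver sums, held 147 and 112. The part of liver in these values was not tested.

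Onecut2 (probe set 10456248) had a different order of arrays. It was at 76.7 in control 1, 158 in control 2 and 123, 134 and 116 in Pdx1cKO mice 1, 2 and 3, so that the Pdx1cKO mice lay between the controls. The mean over both controls, 0.17 (standard error 0.357, limma adjusted p = 0.815), joins 0.69 against control 1 and -0.35 against control 2. Control 2 was 2.06-fold above control 1. Of all genes, 1.70% were over 1 log2 higher in control 2 than in control 1, and Onecut2 and Tspan8 were the members among them. The paralog Onecut3 lay between 56.6 and 63.3 on all 5 arrays. Genes outside the list with the most similar course to Onecut2, by the root mean square difference of centred log2 intensity over the 5 arrays, were Ppa1, Prdx1 and Sar1b, at 0.0474, 0.0539 and 0.0727.

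Neurog3, the endocrine precursor gene that Sox9, Onecut1 and Glis3 help to switch on, was at 41.6 and 61.7 in the control mice and at 39.6, 41.5 and 34.1 in Pdx1cKO. Every Pdx1cKO value was below both controls, with mouse 2 at 41.5 beside 41.6 in control 1. The median over all probe sets was 61.0 to 61.9 on the 5 arrays, so Neurog3 lay near or below it on each. On the log2 scale it was at -0.41 (standard error 0.216, limma adjusted p = 0.515), and -0.12 against control 1 alone.

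Glis3 encodes a zinc finger factor that is needed for the insulin gene and for pancreatic ducts, and its loss gives neonatal diabetes with cystic kidneys. Its intensity (probe set 10466888) was 195 and 126 in the control mice and 139, 128 and 139 in Pdx1cKO mice 1, 2 and 3. Control 1 stood above the other 4 arrays, which lay close together, and Pdx1cKO mice 1 and 3 had the same value. Glis3 was at -0.21 on the log2 scale over both controls (standard error 0.214, limma adjusted p = 0.619), -0.52 against control 1 and 0.099 against control 2. The direction therefore turned with the control used. The paralog Glis2 was likewise highest in control 1, at 413 against 284 in control 2 and 359, 369 and 359 in Pdx1cKO, and Glis1 lay between 59.6 and 62.4 on all arrays.

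Pkhd1 encodes fibrocystin, a large membrane protein of the primary cilium that is mutated in recessive polycystic kidney disease with dilated bile and pancreatic ducts. Its intensity (probe set 10353346) was 86.3 and 84.2 in controls 1 and 2 and 68.8, 60.6 and 63.3 in Pdx1cKO mice 1, 2 and 3. The controls were almost equal and the groups did not overlap. The median over all probe sets was 61.0 to 61.9 on the 5 arrays, so the Pdx1cKO values lay near the level of a typical probe set. Pkhd1 was at -0.41 on the log2 scale (standard error 0.0643, 95% confidence interval -0.59 to -0.22, limma adjusted p = 0.236), with the smallest p of the 8 members. The log2 values had an SD of 0.0254 among controls (n = 2) and 0.0928 among Pdx1cKO mice (n = 3). The Pdx1cKO mean was 0.743 times control 1 and 0.762 times control 2. Kidney, the main site of Pkhd1 expression, was looked for through 3 measured genes, and their summed intensity was 171 and 115 in the control mice and 105 to 110 in Pdx1cKO. Umod, a kidney tubule gene, was at 81.9 in control 1 and at 31.5 to 36.2 on the other 4 arrays. Slc34a1 was at 61.1 and 51.0 in the control mice and at 46.5, 46.5 and 42.4 in Pdx1cKO, and Slc12a1 lay within 27.0 to 27.6 on all arrays. The part of kidney in the Pkhd1 values of either control was not tested.

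Promoter windows of RefSeq (GRCm38.p6), each the 250 bases before a gene's start, were at hand for 6 of the 9 listed genes, 8 windows in all, and were searched on both strands. The 6 were Onecut1, Glis3, Pkhd1, Tspan8, Prom1 and Spp1, of which Spp1 was not measured. There was no window for Sox9, Onecut2 or Bicc1. The Onecut motif ATCAAT, found in 6.72% of all 32851 windows of that length, occurred once among the 8, in that of Tspan8, and the Sox motif AACAAT, found in 9.42%, occurred in 0 of them. A match is a stretch of letters and not a measured binding site.

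Bicc1 encodes an RNA-binding protein with KH and SAM domains whose loss also gives cystic kidneys and dilated pancreatic ducts. It was read by 2 probe sets. The one numbered 10369842 was at 209 and 155 in the control mice and at 167, 158 and 167 in Pdx1cKO mice 1, 2 and 3, and 10369844 was at 476 and 337 and at 367, 346 and 367. Both showed control 1 above the other 4 arrays and Pdx1cKO mice 1 and 3 at the same value, the order seen for Glis3. An exact tie between arrays was held by 67.7% of all probe sets, so the tie is not read as a likeness. Averaged, they were at -0.14 on the log2 scale (standard error 0.161, limma adjusted p = 0.655), -0.38 against control 1 and 0.089 against control 2.

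Of 14 other cilium and cyst genes listed, 11 were measured, with log2 fold changes of -0.15 to 0.23 and a median of -0.00173. Limma called 0 of 11 in either direction. At an unadjusted p under 0.05 it also gave 0 lower and 0 higher, against 5.04% and 5.29% of all genes. In 0 of 11 did the groups separate, against 11.7% of all genes below both controls and 12.0% above. Ift88, Invs and Anks3, among others, had the same value in control 2 and Pdx1cKO mouse 1, and groups that share a value cannot separate. The smallest p belonged to Kif3a, a motor subunit that builds cilia, at 52.9 and 63.6 in the control mice and 69.6, 63.3 and 71.8 in Pdx1cKO (log2 fold change 0.23, standard error 0.110, limma adjusted p = 0.515). Pkd1, the gene of polycystin 1, followed at 0.095, and Anks6, which binds Bicc1, at 0.13. The paralog Pkhd1l1 stood out in control 1, at 271 against 106 in control 2 and 107, 109 and 116 in Pdx1cKO, and its log2 fold change of -1.29 against control 1 became 0.054 against control 2.

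Prom1 encodes CD133, a membrane protein of apical protrusions that is used to sort duct and progenitor cells. Its intensity (probe set 10529824) was 175 and 166 in the control mice and 157, 148 and 141 in Pdx1cKO mice 1, 2 and 3. The groups did not overlap, but the difference is small: the log2 fold change was -0.20 (standard error 0.0573, 95% confidence interval -0.36 to -0.035, limma adjusted p = 0.396). It was -0.24 against control 1 and -0.16 against control 2. Its paralog Prom2 was at 42.2 in control 1 and at 33.0 to 35.2 on the other 4 arrays.

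Tspan8 encodes a tetraspanin of gut and pancreas epithelium, and it was the member that control 2 set apart. Its intensity (probe set 10366446) was 41.8 in control 1, 218 in control 2 and 66.7, 63.9 and 57.0 in Pdx1cKO mice 1, 2 and 3. All 3 Pdx1cKO mice were above control 1 and far below control 2, so the mean of the controls describes neither. Outside control 2 the values lay near or below the array medians of 61.0 to 61.9. The log2 fold change over both controls was -0.61 (standard error 0.805, 95% confidence interval -2.93 to 1.70, limma adjusted p = 0.693), made of 0.58 against control 1 and -1.80 against control 2. Against control 2 alone it passed, at a limma adjusted p of 0.0182, as 8.94% of all genes did in the lower direction, and against control 1 alone it did not, at 0.120. With a single control mouse the spread comes from the Pdx1cKO mice alone, and the control is taken to vary as they do. Over all genes, 3124 had the same value in all 3 Pdx1cKO mice, so small differences from 1 control can pass.
Control 2 was 5.21-fold above control 1 for Tspan8. In the same array Gkn2, a stomach mucosal gene, was at 3014 against 26.4 in control 1, and Lgals4, an intestinal gene, at 1608 against 47.4. All 8 stomach genes and 5 of 8 intestinal genes were over 1 log2 higher in control 2 than in control 1, and the paralog Tspan1 was at 453 against 75.6, with 53.7, 40.0 and 54.3 in Pdx1cKO. The part of gut tissue in the Tspan8 value of control 2 was not tested. Genes outside the list with the course most like that of Tspan8 over the 5 arrays were Serinc2, Me1 and Coro2a, with root mean square differences of 0.102, 0.110 and 0.119 in centred log2 intensity.

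**Figure D2:**
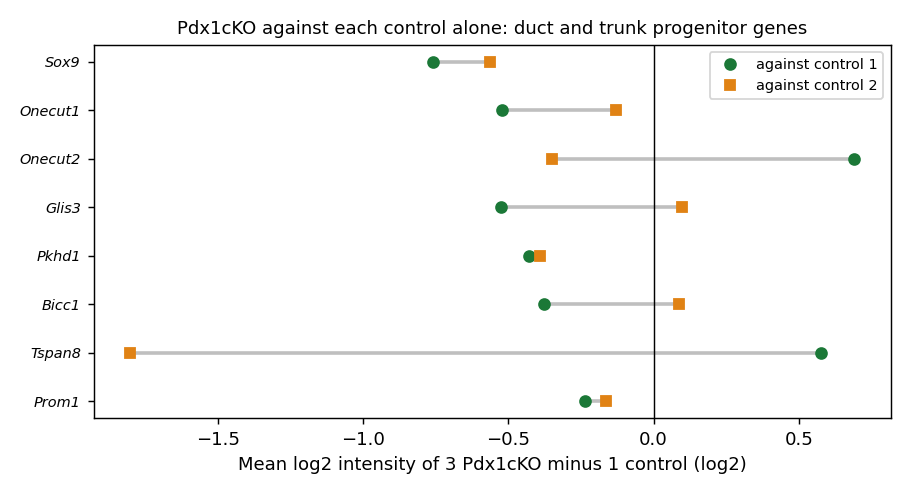
Mean log2 intensity of the 3 Pdx1cKO mice minus that of 1 control (x axis, log2) for the 8 measured genes (circles, against control 1; squares, against control 2; grey lines join both). Sox9, Pkhd1 and Prom1 lie left of 0 against either control, while Tspan8, Onecut2, Glis3 and Bicc1 change sign with the control.

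Setting each control alone against the Pdx1cKO mice gave different members on each side. All 3 Pdx1cKO mice were below control 1 in 6 of 8 members, against 33.3% of all genes, and above it in 2, Onecut2 and Tspan8, against 25.5%. They were below control 2 in 5 of 8, against 28.0%, and above it in 2, Glis3 and Bicc1, against 31.1%. The median log2 difference was -0.40 against control 1 and -0.26 against control 2. Limma with control 1 alone called 0 of 8 members lower and 0 higher, where it called 10.4% and 4.99% of all genes, and at an unadjusted p under 0.05 it gave 4 and 2, against 18.5% and 10.4%. With control 2 alone it called 1 lower, Tspan8, and 0 higher, against 8.94% and 8.04%, and 2 and 0 at an unadjusted p under 0.05, against 15.1% and 14.8%.

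The other duct and trunk genes gave a wider background for these values. Of 22 listed, 21 were measured, and limma called 0 of them, while at an unadjusted p under 0.05 it gave 8 lower and 0 higher, against 5.04% and 5.29% of all genes. In 12 of 21 all Pdx1cKO mice lay below both controls, against 11.7% of all genes, and in 0 of 21 above both. Muc1, a mucin of the apical membrane of duct and acinar cells, had the smallest p of the list: it was at 1369 and 1222 in the control mice and at 379, 270 and 323 in Pdx1cKO (log2 fold change -2.01, standard error 0.173, limma adjusted p = 0.183). Krt18, a keratin of simple epithelia, was at 1620 and 1511 and at 959, 856 and 786 (log2 fold change -0.86, adjusted p = 0.197 from limma). Dcdc2a, whose protein sits in cilia of bile duct cells, was at 116 and 89.5 and at 62.9, 57.1 and 59.2 (log2 fold change -0.77, adjusted p = 0.254 from limma).
These 3 genes lay below each control taken alone, with log2 differences of -2.09 and -1.93 for Muc1, -0.91 and -0.81 for Krt18 and -0.96 and -0.58 for Dcdc2a against controls 1 and 2. Acinar cells also make Muc1 and Krt18, and the acinar sums were lower in the same 3 mice. The part of acinar cells was not tested.

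Some epithelial genes, named here after their values were seen, followed control 2 as Tspan8 did. Elf3, a factor of gut and duct epithelium, was at 60.9 in control 1, 544 in control 2 and 60.1, 51.9 and 58.6 in Pdx1cKO. Krt19, the usual duct keratin, was at 949 and 2516 in the control mice and at 814, 947 and 900 in Pdx1cKO, a log2 difference of -0.10 against control 1 and -1.51 against control 2. Foxa1 was at 44.1 and 203 in the control mice and at 50.3, 48.4 and 40.5 in Pdx1cKO. Car2, a carbonic anhydrase of duct, stomach and red cells, was also higher in control 2, at 58.1 and 1531 in the control mice. Unlike the others it was far above control 1 in all 3 Pdx1cKO mice, at 631, 868 and 319 (log2 difference 3.27). The part of red cells in the Car2 values was not tested. The median log2 difference of the 21 genes was -0.16 against control 1 and -0.72 against control 2.
Adhesion genes of all epithelia, likewise named after their values were seen with the rest of this paragraph, lay lower against either control. Cdh1, the gene of E-cadherin, had log2 differences of -0.70 and -1.36 against controls 1 and 2, and Epcam had -0.55 and -1.19. Against control 1, Sox9 at -0.76 lay beside Cdh1 and Epcam, and Pkhd1 at -0.43 and Prom1 at -0.24 were nearer to 0 than both. Against control 2, Sox9 at -0.56, Pkhd1 at -0.39 and Prom1 at -0.16 were all nearer to 0 than Cdh1 and Epcam. Control 2 was above control 1 for Cdh1 and Epcam, by 1.59-fold and 1.56-fold, and below it for Sox9, Pkhd1 and Prom1. The part of gut tissue and of acinar cells in the Cdh1 and Epcam values was not tested. Some duct genes were near level against control 1: Ehf, an epithelial transcription factor, was at -0.029 and the keratin gene Krt7 at -0.025. Foxa2, a paralog of Foxa1, was lower against either control, at -0.44 and -0.54. In 14 of the 21 genes all Pdx1cKO mice lay below control 1, against 33.3% of all genes, and in 2 above it, against 25.5%. Nkx6-1, which marks the trunk and later beta cells, was at 82.6 and 95.6 in the control mice and at 74.5, 76.0 and 70.8 in Pdx1cKO (log2 fold change -0.27, limma adjusted p = 0.411).

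**Figure D3:**
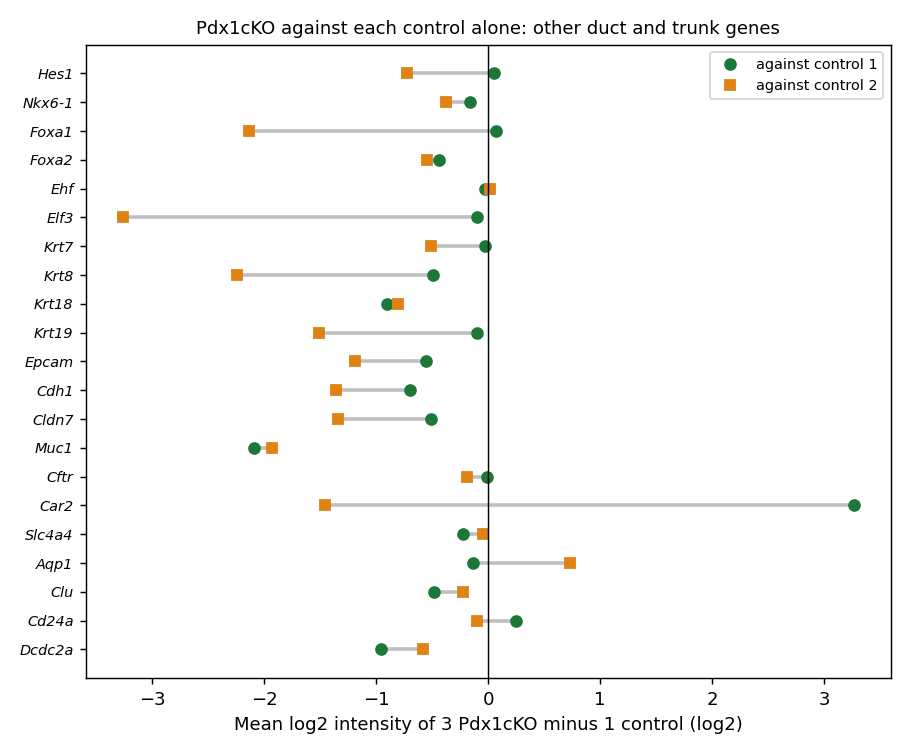
Mean log2 intensity of the 3 Pdx1cKO mice minus that of 1 control (x axis, log2) for 21 other duct and trunk genes (circles, against control 1; squares, against control 2; grey lines join both). Muc1, Krt18 and Dcdc2a lie left of 0 against each control, while Elf3, Foxa1, Krt8 and Krt19 lie over 1 log2 further left against control 2 than against control 1. Car2, Foxa1, Hes1, Aqp1, Cd24a and Ehf have a symbol on either side of 0.

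Osteopontin itself was not read, but genes of its receptors were. CD44 and the integrin chains Itgav, Itgb1, Itgb3 and Itga9 bind osteopontin on stromal, immune and epithelial cells. Cd44 was at 90.9 and 115 in the control mice and at 137, 122 and 150 in Pdx1cKO (log2 fold change 0.41, standard error 0.152, limma adjusted p = 0.515). For Cd44, Itgav and Itga9 all 3 Pdx1cKO mice lay above both controls, at log2 fold changes of 0.41, 0.23 and 0.38, and Itgb1 and Itgb3 overlapped at 0.25 and 0.082. Of all genes, 12.0% lay above both controls in this way, and limma called 0 of these 5. The mesenchyme and granulocyte lists had medians of 0.38 and 2.23 on the same arrays, and their part in these values was not tested. Prox1, a factor of early pancreas, liver and lymphatic vessels, was at 185 and 119 in the control mice and at 150, 144 and 162 in Pdx1cKO.

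**Figure D4:**
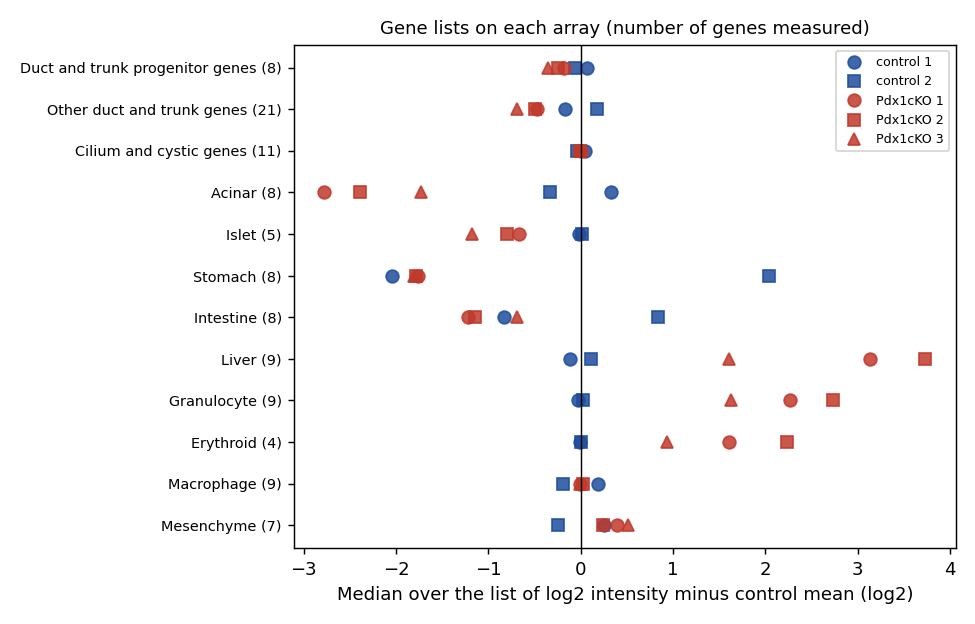
Median over each gene list of log2 intensity minus the control mean (x axis, log2) for the 5 arrays (controls in blue, Pdx1cKO in red, mouse number by symbol), with the number of genes measured in parentheses. The duct and trunk progenitor genes lie at -0.18, -0.25 and -0.35 in Pdx1cKO mice 1, 2 and 3, a shift far smaller than those of the acinar, liver and granulocyte lists, and control 2 stands apart for stomach and intestine.

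Read array by array, the 8 members had a median of -0.18, -0.25 and -0.35 log2 relative to the control mean in Pdx1cKO mice 1, 2 and 3, with 0.066 and -0.066 in controls 1 and 2. The order of the mutants was that of several lists and so is not particular to any 1 of them. It was held by the other duct and trunk list, at -0.48, -0.49 and -0.69, and by the islet list, at -0.67, -0.80 and -1.18. The stomach list held it too, at -1.76, -1.79 and -1.80. It was not that of the acinar list, at -2.78, -2.39 and -1.72. With 3 mice the order is a description only. Mouse 3 had the lowest median, but of the 8 members only 4 were lowest in it, and the other 4, Sox9, Glis3, Pkhd1 and Bicc1, were lowest in mouse 2. Mouse 3 had the lowest liver sum of the 3 and the sex pattern of the controls, and the part of either in these values was not tested.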

How the data were processed

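Total RNA of the whole pancreas, taken at postnatal day 1 from 2 control mice and 3 Pdx1cKO mice as grouped by the sample titles, was hybridised to Mouse Gene 1.0 ST arrays. The deposited intensity values, on a linear scale, were made by the authors with GeneSpring GX; the sources used here do not give background correction, normalization, probe summary or genome build. An exact tie between arrays was held by 67.7% of the 28853 probe sets, so replicate spreads may be understated. There are no detection calls, and the number of arrays limits the precision.

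Log2 was taken with no pseudocount. Probe sets with 1 gene symbol (21789; 1621 had several and 5443 are unnamed here) were averaged into 19938 genes, 999 of them from several probe sets. Symbols came from the platform annotation, and 21698 matched RefSeq (GRCm38.p6) by Entrez gene. Groups were compared with limma 3.58.1 (lmFit, eBayes) in R 4.3.3, adjusted over all genes by Benjamini-Hochberg at 0.05. The code of this step was checked on simulated arrays with known changes. Their noise was drawn independently for each gene, so the check does not cover the gut transcripts of control 2 or exact ties between arrays. Tables were handled in Python 3.11.15 and pandas 2.3.3.

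The members and gene lists were chosen with earlier results of these data known. Named genes were the members, the 3 smallest p values in each list of duct, cilium, paralog or partner genes and genes set beside a member, marker genes whose values stand beside a result, and, for members with a log2 range of at least 1, the 3 genes most alike in course. Others are said to be named after their values were seen. The alternatives were median scaling, quantile normalization, a filter on dim genes, the brightest probe set, each probe set alone, array weights, a trended robust eBayes, the methods' t-test (Student), the replicate number as a block, leaving out each mouse and, added after the data were seen, a covariate for the sex pattern.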

Additional observations from a re-analysis of the deposited data

How the results depend on the processing

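The log2 fold changes of Sox9 (-0.76 to -0.56), Pkhd1 (-0.46 to -0.37), Prom1 (-0.27 to -0.16) and Onecut1 (-0.67 to -0.13) were negative under every alternative run, and none passed over all genes; the filter at the median level dropped Pkhd1. Leaving out control 1 reversed Bicc1 (0.089), Glis3 (0.099) and Onecut2 (-0.35), whose ranges over the left-out mice were -0.38 to 0.089, -0.52 to 0.099 and -0.35 to 0.69, and leaving out control 2 reversed Tspan8 (0.58). Tspan8 passed without control 1 (-1.80, limma adjusted p = 0.0182, against 0.0182 to 0.959 over its alternatives). The members called lower numbered 0 to 1 over the left-out mice, and those called higher 0. The median of the members was -0.40 to -0.20 over all alternatives, and -0.40 without control 2, beyond the spread between replicates of 0.0871. Over all genes the calls were 0 to 2072 lower and 0 to 1604 higher over the left-out mice (1783 and 1604 without control 1, 2072 and 995 without control 2, 0 otherwise), and 7 lower and 3 higher by the methods' t-test. With array weights, which gave each control 0.21 and the Pdx1cKO mice 4.36, 3.02 and 1.72, 0 members were lower at an unadjusted p under 0.05, against 3, and the share of all genes went from 5.04% to 1.96%. With the sex covariate, which sets Pdx1cKO mouse 3 alone against the controls, 2 were, with 5.26% of all genes, and Sox9, Pkhd1 and Prom1 were at -0.64, -0.43 and -0.27. The causes were not tested.

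The groups share replicate numbers 1 and 2, and same-numbered mice deviated together with a correlation of 0.033 and -0.003 across genes. With 2 controls their deviations mirror each other, and they carry the gut transcripts of control 2. These correlations therefore cannot tell whether the numbers pair the mice. With the replicate block the members called numbered 0, their median was -0.20, Sox9 was at -0.67, and the genes lower at an unadjusted p under 0.05 numbered 605, against 1005. No control carries the number 3, so the block takes Pdx1cKO mouse 3 out of the comparison. Its log2 fold changes for the members equal those from leaving that mouse out, and it is not a separate check of them.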
